A study of Mus musculus with 8 samples.

Results

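Aquaporin transcripts were followed in fasted mouse liver with 8 genes: the water channels Aqp1, Aqp4, Aqp5, Aqp8 and Aqp11, and the glycerol channels Aqp3, Aqp7 and Aqp9. They are 8 of the 19938 genes that could be named on the array, and were chosen by name with earlier results of these data known. Where a gene has several probe sets, the one with the highest mean over the 8 arrays represents it; each of these 8 genes had exactly 1 probe set naming it alone. The level therefore chose nothing among the aquaporins themselves, but levels are given as a description and are not tested.

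In the hydrogen water group (4 arrays), C57BL6 mice drank water with dissolved hydrogen for 4 weeks from an age of 7 weeks and were fasted for 17 h before the liver was taken. The control group (4 arrays) was also fasted for 17 h; what the control mice drank, the sex of the animals and whether each array is a separate mouse are not stated in the labels. If the arrays are not separate animals, the p-values may reflect technical spread alone. The treatment text is the same for all samples. Strain and age are assigned here to the hydrogen water group only, so whether the groups match in them cannot be told here. No fed mice are analysed here, so a level after fasting has no fed level beside it here. RNA was read on Affymetrix Mouse Gene 1.0 ST arrays, a 1-colour platform, and all values are log2 signals, on which a difference of 1 is a ratio of 2.

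The 10 hepatocyte markers examined, albumin among them, had mean log2 signals between 13.55 and 14.43, at the top of the array's range, as the liver label requires. Array medians lay between 5.27 and 5.37, and correlations between arrays over all genes between 0.988 and 0.995. Control 3 stood apart from its group: its signal differed by over 0.5 from the mean of the other 3 controls in 11.6% of genes. The same share lay between 2.35% and 6.07% on the other 7 arrays, each set against its own group. The difference of each aquaporin gene is given with and without control 3, an array singled out with the values of Aqp8 known.

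Aquaporins are small membrane proteins that form a pore in each subunit of a tetramer. The classical members pass water along an osmotic gradient, and the aquaglyceroporins also pass glycerol and other small uncharged solutes. In liver, glycerol released from fat tissue during fasting enters hepatocytes through Aqp9 and is used for gluconeogenesis, while Aqp8 of rodent hepatocytes lies in intracellular vesicles, the canalicular membrane and the inner mitochondrial membrane and takes part in bile water secretion. Aqp8 also passes hydrogen peroxide and ammonia.

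Aqp8 was the aquaporin that stood furthest from the controls in the hydrogen water group. The promoter windows of Aqp8 and Aqp9, the canalicular water channel and the hepatocyte glycerol channel, are shown first. Each runs 5′ to 3′ on the gene's own strand, from 250 bases before to 50 bases after a start site that RefSeq places on GRCm38.p6. Aqp8 lies on the plus strand at chr7:123462044-123462343. The Aqp9 window shown lies on the minus strand at chr9:71162584-71162883 and is 1 of 2 that RefSeq gives for this gene. Capitals mark a match to a searched motif; a window without capitals has none.
Aqp8: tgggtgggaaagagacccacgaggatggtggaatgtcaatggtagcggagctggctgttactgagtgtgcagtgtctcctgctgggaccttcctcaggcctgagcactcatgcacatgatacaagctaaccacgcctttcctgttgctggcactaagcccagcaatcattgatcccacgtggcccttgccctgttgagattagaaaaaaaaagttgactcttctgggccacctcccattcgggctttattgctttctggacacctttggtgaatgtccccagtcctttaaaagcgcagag
Aqp9: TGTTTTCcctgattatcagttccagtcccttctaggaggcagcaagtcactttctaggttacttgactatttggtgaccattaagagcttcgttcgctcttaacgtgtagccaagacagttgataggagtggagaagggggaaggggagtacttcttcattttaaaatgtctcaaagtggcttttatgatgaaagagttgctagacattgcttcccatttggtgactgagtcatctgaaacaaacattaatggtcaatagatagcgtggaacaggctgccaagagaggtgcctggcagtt
The capitals in the Aqp9 window spell TGTTTTC, the sequence of the insulin response element described upstream of the mouse Aqp9 gene. They stand at the first bases of the window shown, and the other Aqp9 window had 0 matches. Whether they are the described element was not tested. Insulin is known to repress Aqp9 in rodents, and fasting to raise it. This motif was present on either strand in 7.35% of 32851 promoter windows of 300 bases, so a match is a description and not evidence of a site. The other motifs searched on both strands were TGACGTCA, the cAMP response element (1.79% of windows), GTTAAT, an HNF1 half-site (7.10%), and TATAAA (13.6%). Aqp4 was left out of this search. Over 9 windows of the other 7 aquaporin genes, 1 further match was found, a TATAAA at position −29 of Aqp3. Position −1 is the base before the start site. G and C made up 52.0% of the Aqp8 window and 43.7% of the Aqp9 window, against a median of 52.7% over all windows.

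The level of Aqp8 (transcript cluster 10557300) was nearly the same on all 4 hydrogen water arrays, at 7.44, 7.43, 7.43 and 7.52, against 8.49, 8.36, 7.25 and 8.33 on controls 1 to 4. The hydrogen water arrays lay below 3 of the 4 controls and above control 3, so the groups overlapped. Aqp8 averaged 7.46 ± 0.05 in the hydrogen water group and 8.11 ± 0.58 in controls (SD, n = 4 each). The difference was −0.65 (SE 0.22, 95% interval −1.14 to −0.16), a ratio of hydrogen water over control of 0.637. By limma with Benjamini-Hochberg adjustment over 19938 genes it did not pass the threshold of 0.05 (unadjusted p = 0.0131, adjusted p = 0.644). An exact permutation test of its group means (two-sided, 70 ways to divide the arrays) gave p = 0.143; no p under 0.0286 is possible with this design. By size, the difference ranked 81 of 19938 genes in either direction, and by p it ranked 406.

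**Figure D1:**
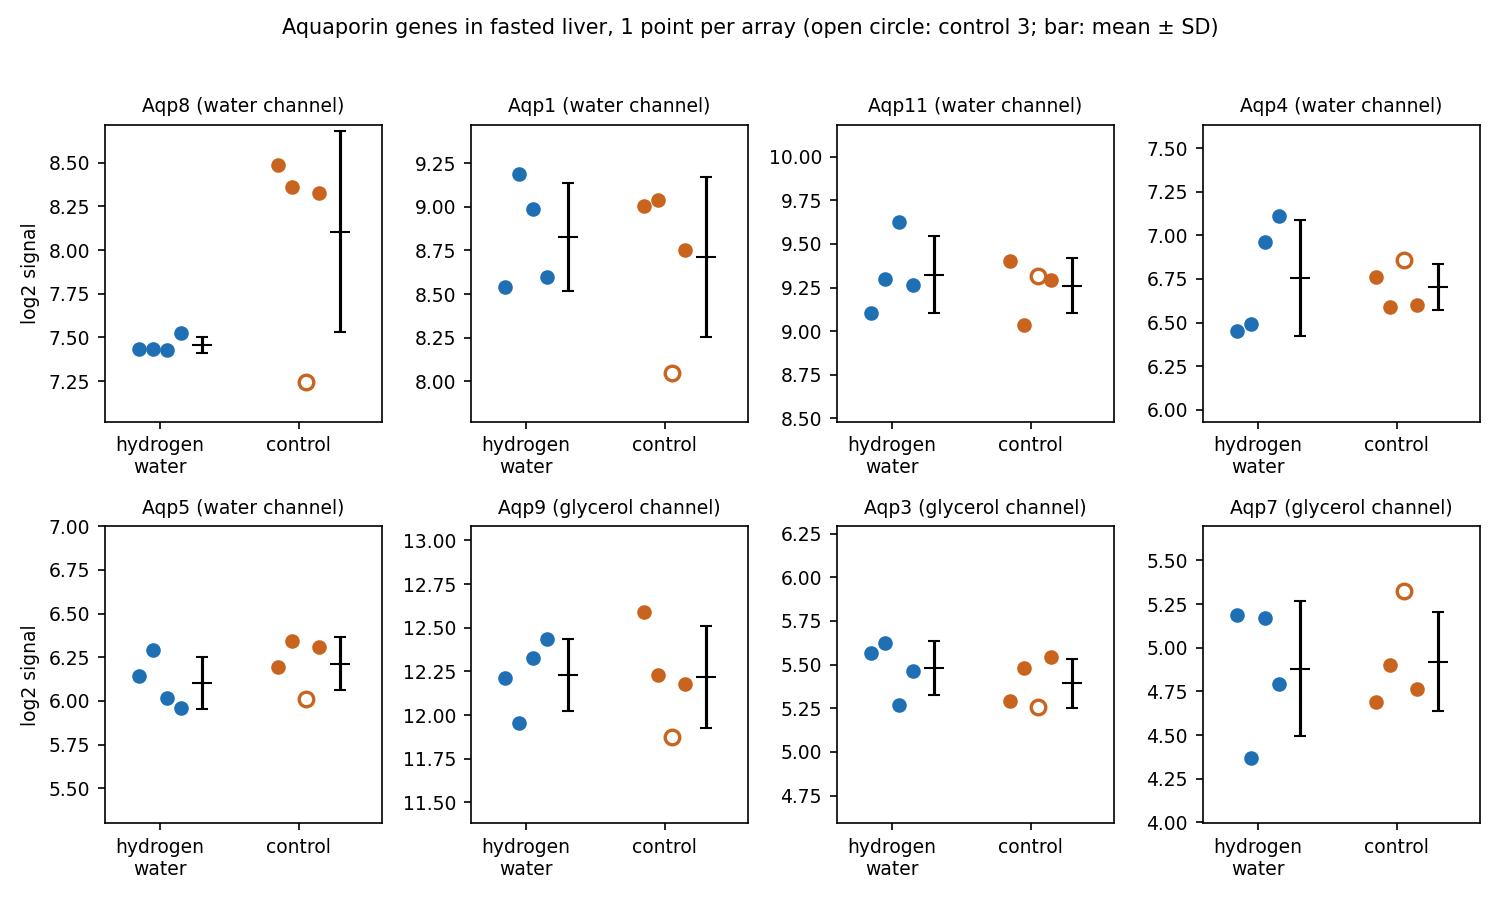
Log2 signal of the 8 aquaporin genes on each array, with hydrogen water left of control, the mean and SD as a bar beside the points, and control 3 as an open circle; every panel spans the same height on its own log2 range. The 4 hydrogen water arrays of Aqp8 sit between 7.43 and 7.52, below 3 controls at 8.33 to 8.49 and above control 3 at 7.25.

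Without control 3 the groups of Aqp8 lay wholly apart, as did those of 8.13% of all genes with the same array left out. The other 3 controls averaged 8.39 ± 0.08 (SD, n = 3), and the difference became −0.94 (SE 0.10, 95% interval −1.15 to −0.72), a ratio of 0.523. It then passed limma's test over all genes (adjusted p = 0.0205), and it was the only gene to do so, or 0.00502% of 19938. The array was singled out with the values of Aqp8 known, so this adjusted p describes how far the call rests on 1 array and is no independent test. Leaving out any of the other 7 arrays kept the difference between −0.67 and −0.52, with adjusted p from limma between 0.477 and 0.976. Over the same 8 repeats, the number of genes past the threshold was 1 or 0: Aqp8 without control 3, Sucnr1 without control 2, and none in the other 6, where 958 to 1838 genes had an unadjusted p under 0.05. Sucnr1 was named after its value was seen.

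**Figure D2:**
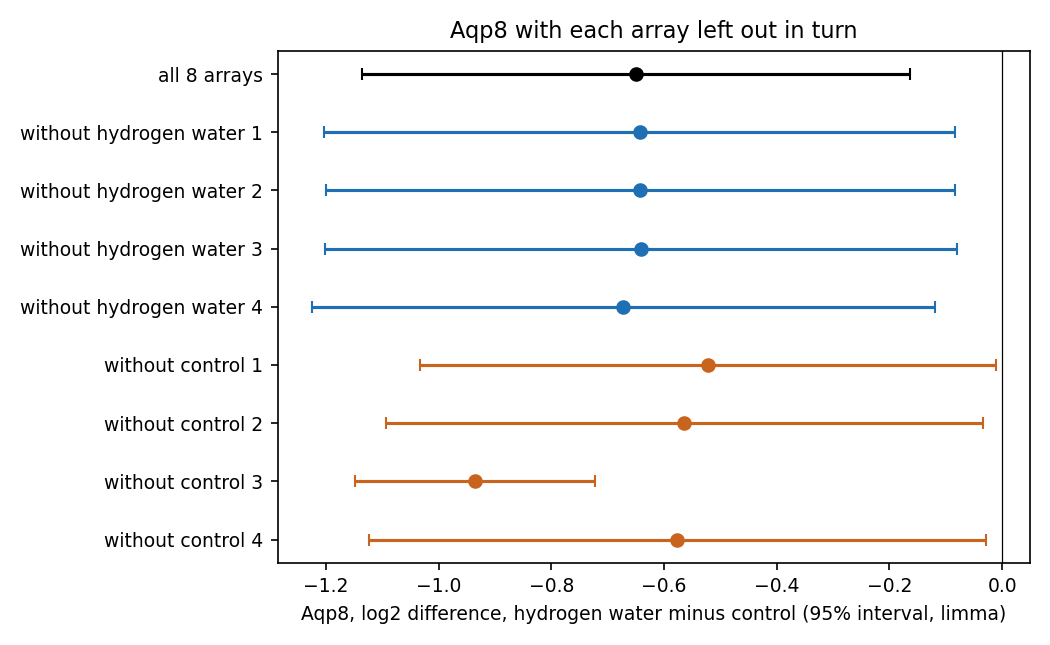
Difference of Aqp8 on the log2 scale, hydrogen water minus control, with its 95% interval from limma, over all 8 arrays and with each array left out in turn (blue, a hydrogen water array; orange, a control). The difference was negative in every repeat, and its interval was narrowest without control 3, from −1.15 to −0.72 around −0.94.

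The spread of Aqp8 was unequal between the groups. Its SD over the 4 hydrogen water arrays was among the lowest of all genes (percentile 2.96), and its SD over the 4 controls among the highest (percentile 98.9). Aqp8 is also abundant in pancreatic acinar cells. Of 8 acinar markers listed, 6 were measured, with mean log2 signals between 4.43 and 6.04 and 1 of them above the median of all genes (5.87). Their mean around each gene's own average lay between −0.10 and −0.01 on hydrogen water arrays and between −0.07 and 0.16 on controls, and stood at 0.14 on control 3, the control with the lowest Aqp8. Over all genes, 10223 of 19938 had a negative difference. Of these 6 markers 5 had a negative difference, as Aqp8 did, and 1 a positive one, with a median of −0.08. None passed the adjusted threshold, and 1 was lower at an unadjusted limma p under 0.05, against 3.57% of all genes. The part of these cells in the Aqp8 values was not tested. In whole liver, fewer cells of a type and less RNA per cell cannot be told apart.

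Aqp1 (transcript cluster 10538459), the water channel of endothelial cells, bile duct cells and red cells, varied strongly between arrays. Its signal was 8.54, 9.19, 8.99 and 8.60 on hydrogen water arrays 1 to 4 and 9.01, 9.04, 8.05 and 8.75 on controls 1 to 4. Control 3 was the lowest array and the other 7 were intermixed. The mean was 8.83 ± 0.31 with hydrogen water and 8.71 ± 0.46 in controls (SD, n = 4 each), a difference of 0.12 (95% interval −0.35 to 0.58; limma adjusted p = 0.943). Without control 3 its sign turned, to −0.11 (95% interval −0.46 to 0.25; limma adjusted p = 0.892).

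Markers of the cells that carry Aqp1 are given beside it, array by array. All 10 endothelial markers measured had a positive difference, against 9715 of all 19938 genes. Their median difference was 0.28, but 0 passed the test over all genes. Their mean lay between −0.18 and 0.43 on hydrogen water arrays and between −0.46 and 0.08 on controls. The endothelial mean was −0.18, 0.43, 0.24 and 0.10 on hydrogen water arrays 1 to 4 and 0.08, −0.46, −0.20 and −0.01 on controls 1 to 4. It was highest on hydrogen water 2, as Aqp1 was, and below 0 on control 3 and hydrogen water 1, where Aqp1 was lowest, but it was lowest on control 2, where Aqp1 was high. Of 10 bile duct cell markers 7 were measured, 1 of them above the median level, with a mean between −0.26 and 0.02 on hydrogen water arrays and between −0.22 and 0.53 on controls, highest on control 2. The 4 erythroid markers measured of 8 had a median difference of 0.02. The part of these cells in the Aqp1 values was not tested.

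Aqp11 (transcript cluster 10565627), an unorthodox aquaporin of the endoplasmic reticulum whose loss in mice vacuolates kidney tubule cells, did not separate the groups. It stood at 9.11, 9.30, 9.63 and 9.26 on hydrogen water arrays and 9.40, 9.03, 9.32 and 9.29 on controls. Hydrogen water 3 was the highest array and control 2 the lowest, and the groups overlapped, with a difference of 0.06 (95% interval −0.22 to 0.35; limma adjusted p = 0.947), and 0.08 without control 3. Signals of different genes come from different probes, so no order of abundance between genes follows from them.

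Aqp4 (transcript cluster 10457614), best known from astrocytes and muscle, divided the hydrogen water arrays. Hydrogen water 3 and 4 stood at 6.96 and 7.11 and hydrogen water 1 and 2 at 6.45 and 6.49, with the controls in between at 6.76, 6.59, 6.86 and 6.60. The difference of the means was 0.05 (95% interval −0.28 to 0.39; limma adjusted p = 0.970), and 0.10 without control 3. Of the 8 skeletal muscle markers measured, 2 lay above the median level.

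Aqp5 (transcript cluster 10426767), a channel of salivary and other secretory glands, spanned little on these arrays, from 5.96 to 6.29 with hydrogen water and from 6.01 to 6.34 in controls. Its difference was −0.11 (95% interval −0.36 to 0.14; limma adjusted p = 0.886), and −0.18 without control 3. Its signal lay close to the median of all genes, and the deposited values carry no detection limit.

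Aqp9 (transcript cluster 10594825), the hepatocyte glycerol channel, had a signal above that of 98.6% of genes. Its values were 12.21, 11.95, 12.33 and 12.43 on hydrogen water arrays and 12.59, 12.23, 11.87 and 12.18 on controls. Both the highest and the lowest array were controls, and the hydrogen water arrays lay between them. The mean was 12.23 ± 0.21 with hydrogen water and 12.22 ± 0.29 in controls (SD, n = 4 each), a difference of 0.01 (95% interval −0.32 to 0.35; limma adjusted p = 0.993). Without control 3 it was −0.10 (95% interval −0.41 to 0.21).

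Aqp3 and Aqp7, the aquaglyceroporins best known from skin and kidney epithelia and from fat cells, lay below the median level of all genes. Aqp3 (transcript cluster 10512156) spanned 5.27 to 5.63 with hydrogen water and 5.26 to 5.54 in controls, a difference of 0.09 (95% interval −0.16 to 0.34; limma adjusted p = 0.917), and 0.04 without control 3. Aqp7 (transcript cluster 10512145) stood at 5.19, 4.37, 5.17 and 4.79 on hydrogen water arrays and 4.69, 4.90, 5.32 and 4.77 on controls. Its widest departures were hydrogen water 2, the lowest array, and control 3, the highest. The Aqp7 difference was −0.04 (95% interval −0.46 to 0.38; limma adjusted p = 0.982), and 0.10 without control 3. Aqp7 and Aqp3 are next to each other on chromosome 4, with 0 coding genes between them in RefSeq.

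Adipocyte markers, from fat cells, are given beside Aqp7. Of 8 listed 7 were measured, with mean log2 signals between 3.41, for Adipoq, the fat cell hormone adiponectin, and 12.42, for Car3, a carbonic anhydrase that hepatocytes also make. Their mean lay between −0.15 and 0.07 on hydrogen water arrays and between −0.22 and 0.16 on controls, and was −0.00 on control 3. Only 3 of the 7 lay above the median level of all genes. The mean was lowest on control 1, where the listed marker Cidec stood at 8.60, against 10.11 to 10.89 on the other arrays. The part of fat cells in the Aqp7 values was not tested.

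**Figure D3:**
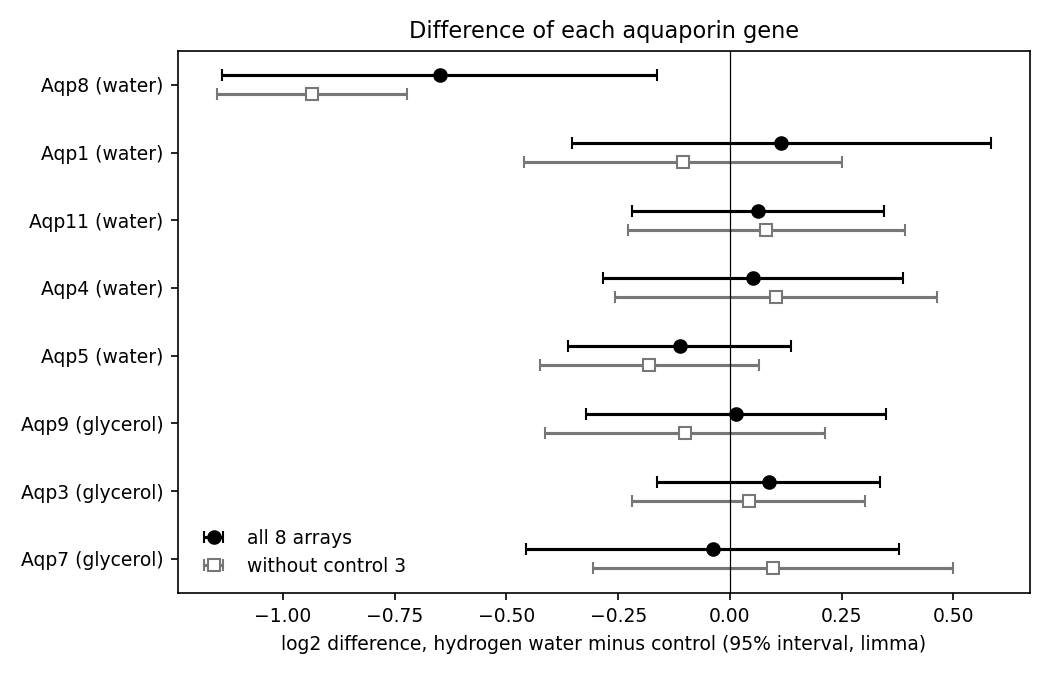
Difference of each aquaporin gene on the log2 scale, hydrogen water minus control, with 95% intervals from limma, over all 8 arrays (black circles) and without control 3 (open squares). Only the intervals of Aqp8 leave out 0, at −0.65 and −0.94; Aqp1, Aqp7 and Aqp9 change sign between the 2 settings.

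Set side by side, the 5 water channels had a median difference of 0.05 and the 3 glycerol channels one of 0.01, against −0.00 over all genes. Without control 3 these medians were −0.11, 0.04 and −0.00. All 5 water channels and 1 of the 3 glycerol channels, Aqp9, had a mean level above the median of all genes. Of the 8 genes 0 passed the adjusted threshold, as did 0% of all genes, and the groups lay wholly apart in 0 of 8, against 3.76% of all genes. At an unadjusted p under 0.05 there was 1 of 8, Aqp8, where 1429 of all genes, or 7.17%, reached it (3.57% lower and 3.6% higher with hydrogen water); without control 3 it was again 1 of 8, against 8.57%. Among all genes that split depended on scaling: 718 were higher and 711 lower as deposited, 588 and 1179 after quantile normalization and 421 and 1177 after median centring, with Aqp8 lower in each, by −0.66 and −0.69 in the rescaled data. With 8 genes a count of 1 is near that background.

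The arrays did not move together across the family. On control 3, Aqp8 stood 1.14 below the mean of the other 3 controls and Aqp1 0.88 below it, departures larger in size than those of 99.5% and 98.3% of genes on that array. Aqp9, Aqp5 and Aqp3 were also below, by 0.46, 0.27 and 0.18, whereas Aqp7, Aqp4 and Aqp11 were above, by 0.54, 0.21 and 0.07. The median departure of all genes on control 3 was 0.18 in size. On hydrogen water 2, Aqp7 was 0.68 below and Aqp1 0.48 above the other 3 arrays of that group.

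**Figure D4:**
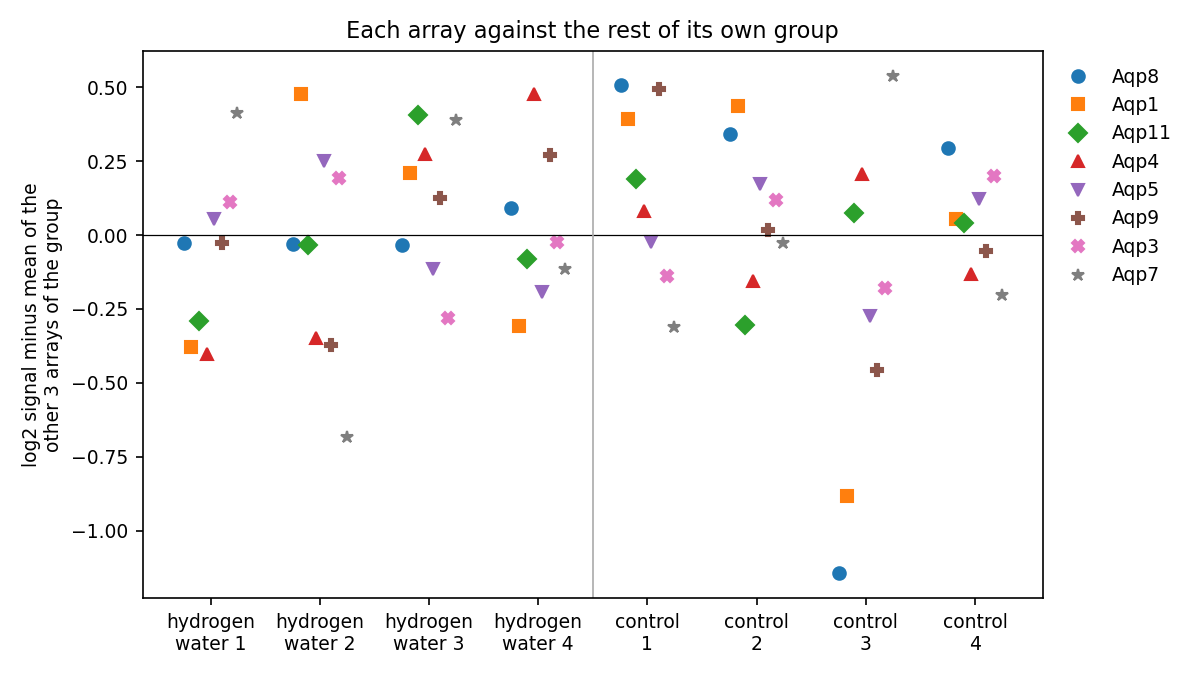
Log2 signal of each aquaporin gene on each array minus the mean of the other 3 arrays of its group, hydrogen water arrays left of control arrays. Aqp8 and Aqp1 on control 3, at −1.14 and −0.88, are the lowest points; Aqp8 stays between −0.03 and 0.09 on the hydrogen water arrays.

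Genes with a like profile were sought for the 6 aquaporins above the median level, among 9697 named genes above it, by the root mean square difference over the 8 arrays between log2 values centred on each gene's mean. The closest to Aqp8 were Mrps28, a mitochondrial ribosomal protein gene (0.18), Sertad3, a SERTA domain gene (0.21), and Selenos, a selenoprotein of the endoplasmic reticulum (0.23), where the median over candidates was 0.50. All of them were low on control 3, at −0.37, −0.49 and −0.36 around their means, beside −0.53 for Aqp8. Their differences were −0.43 (SE 0.18), −0.45 (SE 0.22) and −0.39 (SE 0.17), and none passed limma's adjusted threshold (adjusted p between 0.687 and 0.709).

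**Figure D5:**
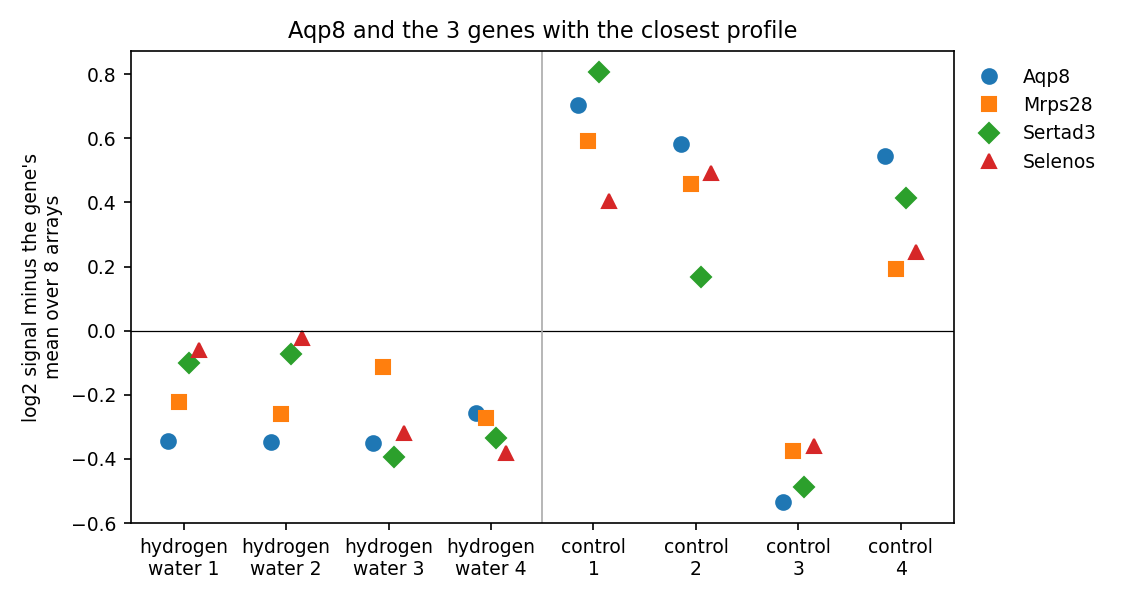
Log2 signal minus the gene's mean over the 8 arrays, for Aqp8, Mrps28, Sertad3 and Selenos, hydrogen water arrays left of control arrays. All 4 genes are above 0 on controls 1, 2 and 4 and below 0 on control 3 and on every hydrogen water array; the genes were picked for this likeness.

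The closest genes to Aqp9 were Anxa6, an annexin (0.04), Ppox, an enzyme of heme synthesis (0.04), and Selenbp1, a selenium-binding protein gene (0.06), against a median of 0.26. For Aqp1 they were B3galt6, Wnt5b and Snrpe (0.12 to 0.13, median 0.38), for Aqp11 Tcf7l1, Bloc1s6 and Bmf (0.07 to 0.08, median 0.25), for Aqp4 Dlst, Tpm3 and Dhx29 (all 0.07, median 0.26) and for Aqp5 Ywhaq, Ints5 and Fpgt (0.03 to 0.05, median 0.24). These genes are the closest of 9697, so their likeness is a description and no test.

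Glycerol kinase, Gk, was listed for glycerol use but had no probe set naming it alone, so it is not analysed here. Around Aqp9, the genes listed as using or releasing glycerol showed 0 of 14 measured members past the adjusted threshold, of 16 listed. Their median difference was 0.01, and 1 had an unadjusted p under 0.05, which is no more than the 7.17% of all genes. This was Pnpla2, the first lipase of triglyceride breakdown, at 11.21, 11.15, 11.29 and 11.49 with hydrogen water and 10.41, 10.93, 11.06 and 11.01 in controls, a difference of 0.43 (SE 0.15; limma adjusted p = 0.640). Its groups did not overlap, as was so for 3.76% of all genes. Lipe, hormone-sensitive lipase, differed by 0.24 (SE 0.12), Gpam, which starts glycerolipid synthesis, by 0.18 (SE 0.10), and the mitochondrial glycerol phosphate dehydrogenase Gpd2 by −0.22 (SE 0.15). The cytosolic dehydrogenase Gpd1 stood at 11.94, 11.86, 12.33 and 12.34 with hydrogen water and 12.82, 12.49, 11.80 and 12.31 in controls, a difference of −0.24 (SE 0.20). Like Aqp9, Gpd1 had both its highest and its lowest array among the controls, controls 1 and 3. Pck1, which commits carbon to gluconeogenesis, differed by 0.01 (SE 0.12).

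Of the 13 measured regulators reported for aquaporin genes or for hepatic fasting signals, 0 passed and 10 had a positive difference. Over all genes, 9715 of 19938 had a positive difference. Of the 13 regulators, 1 had an unadjusted p under 0.05, against 7.17% of all genes. The nuclear receptor Ppara, whose agonists act on aquaglyceroporin genes in mice, stood at 11.13, 11.11, 11.26 and 11.67 with hydrogen water and 11.05, 10.97, 11.05 and 10.80 in controls, a difference of 0.33 (SE 0.13; limma adjusted p = 0.687). The groups did not overlap, as was so for 3.76% of all genes, and hydrogen water 4 was the highest array. Foxo1, a transcription factor that insulin inhibits, differed by 0.36 (SE 0.18), the leptin receptor Lepr by 0.62 (SE 0.37) and the forkhead factor Foxa2 by −0.29 (SE 0.18).

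Beside Aqp8, the 15 genes listed for canalicular and ductular transport, not all of them of those membranes, had a median difference of −0.07. Of them 0 passed the adjusted threshold and 2 had an unadjusted p under 0.05, both lower, where 3.57% of all genes were. Slco1b2, an uptake carrier of the sinusoidal membrane, differed by −0.29 (SE 0.11) and Ano1, a chloride channel, by −0.28 (SE 0.12). The groups of Slco1b2 did not overlap, as was so for 3.76% of all genes. Abcg5, a subunit of the sterol exporter, differed by −0.23 (SE 0.16) and the canalicular flippase Atp8b1 by −0.15 (SE 0.11). Over all genes, 10223 of 19938 had a negative difference. Of 13 measured genes that make or remove hydrogen peroxide, 0 passed and 11 had a negative difference, with a median of −0.04. The largest was that of Nox4, an oxidase that releases hydrogen peroxide (−0.30, SE 0.14), followed in size by Gpx1 (−0.20, SE 0.12), a peroxidase; the thioredoxin Txn2 and the peroxiredoxin Prdx3 of mitochondria differed by −0.09 (SE 0.09) and 0.10 (SE 0.16). On control 3 the mean of this list was −0.23, below all other arrays, which lay between −0.08 and 0.24.

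The 9 measured genes of the osmotic response had a median difference of 0.13; 0 passed and 1 had an unadjusted p under 0.05, against 7.17% of all genes. Hspa4l, a chaperone induced by hypertonic stress, differed by 0.32 (SE 0.13; limma adjusted p = 0.687), the inositol transporter Slc5a3 by 0.31 (SE 0.17), the factor Nfat5 that drives it by 0.27 (SE 0.15) and Slc12a2, a chloride cotransporter, by 0.13 (SE 0.14). The means of the osmotic and regulator lists were both highest on hydrogen water 4, at 0.29 and 0.32. Markers of Kupffer cells, the liver's macrophages, were also highest there, at 0.61. All 10 of them were measured, 7 above the median level, and all had a positive difference, against 9715 of all 19938 genes. Their median difference was 0.41. Their mean lay between −0.15 and 0.61 on hydrogen water arrays and between −0.41 and 0.08 on controls. Of the 10, 0 passed the adjusted threshold and 4 had an unadjusted p under 0.05, all higher, as 3 endothelial markers did, against 3.6% of all genes. The part of these cells in the values of both lists was not tested.

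The other 4 aquaporin genes on the array all lay below the median level. Aqp2, the vasopressin-regulated channel of the kidney, stood at 5.92, 5.78, 5.93 and 5.79 with hydrogen water and 5.70, 5.61, 5.69 and 5.75 in controls. Its groups did not overlap, as was so for 3.76% of all genes, but its difference of 0.17 (SE 0.09, limma adjusted p = 0.754) did not pass. Aqp12, a pancreatic aquaporin, differed by −0.13 (SE 0.10), Aqp6, of kidney vesicles, by −0.14 (SE 0.13) and Mip, the lens aquaporin, by −0.05 (SE 0.19). Aqp2, Aqp5 and Aqp6 are neighbours on chromosome 15, with 0 other coding genes between them.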

How the data were processed

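RNA from 8 fasted liver samples was measured on 1-colour arrays. The authors deposited 1 table of log2 signals; per the submitters' processing notes the tool was Affymetrix Expression Console. Its version, the normalization and the genome build are not given in the sources, and the log2 scale was read from the values. Groups came from the sample titles, since the treatment text is the same for all 8 samples.

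Of 35556 probe sets, 21789 had 1 gene symbol, 1621 several and 12146 are unnamed here. The platform annotation gave the symbols, which were brought up to date by Entrez identifier through RefSeq (GRCm38.p6, names and promoter sequences only); 19856 of 19938 genes matched. The fit used lmFit and eBayes of limma 3.58.1 (R 4.3.3; 2 groups, no covariate, two-sided; 6 residual and 5.88 prior degrees of freedom), with Benjamini-Hochberg adjustment over all genes, a threshold of 0.05 and no filter. The number of arrays limits the precision; depth does not apply. Alternatives were each array left out, quantile normalization, median centring, probe set means, every probe set, genes above the median level, a trended robust variance, array weights, a replicate block and an exact permutation test.

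The aquaporin genes, the lists and the markers were chosen with earlier results of these data known. Genes were named by rule: the 8 aquaporins, the other 4, the 4 genes of each list with the smallest unadjusted p, Gpd1 and Pck1, and the 3 closest profiles. Listed genes with no probe set naming them alone are not analysed here. The fit was tested on simulated data. Promoter motifs were chosen after the first results. Plots used matplotlib 3.10.9 in Python 3.11.15.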

Additional observations from a re-analysis of the deposited data

Results flagged for a closer look

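Aqp8 on control 3 stood at 7.25, far from the other 3 controls at 8.33 to 8.49. Aqp8 on hydrogen water 4 stood at 7.52, apart from the other 3 hydrogen water arrays, which lay between 7.43 and 7.44, although this gap is small. In each case the gap to the nearest array took a larger share of the group's range (0.871 and 0.928) than the critical value of 0.829 for 4 samples. Chance marks about 1 in 20 groups in this way, and 2 of the 16 groups examined (8 genes in each of 2 groups) were marked.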

How the results depend on the processing

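Over 17 alternatives (16 for Aqp3 and Aqp7, which the restriction to genes above the median level removed), Aqp8, Aqp3 and Aqp5 kept their sign throughout, with differences between −0.94 and −0.52, 0.02 and 0.16, and −0.18 and −0.06. Several of these could not change a sign, since they leave the difference of these genes as it is. They were probe set means, every probe set, the level restriction, the trended variance, the replicate block and the permutation test. With 1 array left out, the number of genes past the threshold ranged from 0 to 1 and that of aquaporin genes from 0 to 1; Aqp8 passed without control 3 alone, at −0.94. The leave-one-out range crossed 0 for Aqp1 (−0.11 to 0.22), Aqp11 (−0.038 to 0.14), Aqp4 (−0.068 to 0.15), Aqp7 (−0.14 to 0.13) and Aqp9 (−0.10 to 0.14). Median centring turned Aqp9 to −0.025. Array weights turned Aqp1 to −0.022, Aqp7 to 0.11 and Aqp9 to −0.033, and gave Aqp8 −0.83 (limma adjusted p = 0.223). The cause was not tested. Genes with an unadjusted p under 0.05 numbered 786 above the median level, where fewer genes were tested, against 1429.

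The replicate numbers in the titles did not pair the arrays: same-numbered arrays correlated between −0.16 and 0.06 in their deviations from the group means. With the number as a replicate block, Aqp8 differed by −0.65 (limma adjusted p = 0.642) and 0 genes passed. Every probe set fitted by itself, quantile normalization, probe set means and the trended variance changed no call. Signal over background is not in the deposited values, so what was too dim to be measured is unknown.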
